A study of Homo sapiens with 9 samples.

Results

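The genes described here are the antisense-named long non-coding genes of HT-29 cells, that is, genes whose symbol is another gene's symbol followed by -AS and a number. They were chosen by name and level: the symbol ends in -AS and digits, and the mean raw count over all 9 libraries is at least 30. That mean is the only measured value the choice used. Of 62710 distinct gene identifiers, 1110 carried such a symbol, 343 of these had no count in any library, and 252 met both conditions. For 6 of the 252 the table pairs the antisense symbol with an identifier that the reference annotation names for a different gene (MCL1 under ADAMTSL4-AS1 and BACH1 under GRIK1-AS2, for example). These 6 were set aside, which left 246 antisense-named genes. Each was set beside its partner, the gene named before -AS, and 240 of the 246 had a partner in the table (239 different genes).

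HT-29 is a human colorectal adenocarcinoma cell line, labelled WT throughout. The 9 libraries come from 3 groups of 3: non-stimulated cells, cells given 500 ng/mL flagellin and cells given 500 ng/mL ADP-heptose, with stimulation for 2.5 h. ADP-heptose is a sugar nucleotide of the bacterial lipopolysaccharide pathway that human cells sense through the kinase ALPK1, and flagellin is the protein of the bacterial flagellum, sensed through the receptor TLR5. Poly(A)-enriched RNA from this single line was measured, so transcripts without a poly(A) tail are poorly covered.

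Antisense genes are transcribed from the strand opposite to a coding gene. Some start near the coding gene's own start site and run away from it or back across it, others begin inside it or beyond its end, and many have no assigned function. They are often expressed at low levels, and some are reported to act on the gene they overlap while others act elsewhere in the cell. Reads from the overlapped bases can be assigned to the right gene only when the library and the counting keep the strand. Whether the strand was kept is not given in the sources used here. Unless it was, reads from the bases that an antisense-named gene shares with another gene cannot be told apart, and each overlap is therefore given beside the value it touches.

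The libraries held 30770448 to 58272772 counts. Depth went with the stimulus: the ADP-heptose libraries held 50054773 to 58272772 counts and all others 30770448 to 38304035. The TMM factors were 0.894 to 0.969 with ADP-heptose and 1.02 to 1.04 in the other groups. Of the 10 epithelial markers, 8 had more than 100 counts in every library, while CDX1 had 0 to 12 and CDX2 17 to 48. Of 12 markers of leukocytes, fibroblasts and endothelium, 10 had at most 30 counts in any library and 4 had none (CD3E, COL1A2, DCN and CDH5). The exceptions were LYZ with 13826 to 23970 counts and COL1A1 with 437 to 1019, and the summed level of the 12 was 414 to 435 CPM (counts scaled to library size) without stimulation, 444 to 453 with flagellin and 400 to 444 with ADP-heptose. The summed level of the 10 epithelial markers was 8672 to 9090, 8898 to 9271 and 9506 to 13371 CPM in the same order. KRT20 (log2 fold change 0.40, adjusted p 9.41e-04) and COL1A1 (0.41, adjusted p 0.0311) were called higher after ADP-heptose, and the part of these shifts in the results was not tested. The third ADP-heptose library stood apart: the SD of its log2 differences from replicates 1 and 2 was 0.378 and 0.383, against 0.135 between these and 0.167 to 0.196 within the other groups. The totals of called antisense-named genes and partners, and the counts of pairs, are therefore given with and without it. Other counts include it, such as those by a 2-fold change, by groups that did not overlap, by partner class, by overlap or by other name classes.

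By GENCODE release 29, which places 245 of the 246 genes on GRCh38, 182 were annotated as antisense, 30 as processed transcripts and 28 as intergenic long non-coding RNAs. Their exons covered a median of 2551 bases, from 354 to 19619. In 173 genes exons overlapped exons of the partner on the opposite strand, and in another 45 the gene spans overlapped but no exon did. In 18 the pair was head to head without overlap, with start sites a median of 105.5 bases apart, and in 3 it was tail to tail. The other 7 could not be placed against a partner, among them the 5 genes named for a HOX cluster. Counting overlap with any annotated gene, 194 of the 246 shared at least 1 exonic base with another gene, with a median of 13.9% of their exonic bases, and 8 shared more than 50%. The remaining 51 annotated genes shared none.

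Levels ranged widely. Together the 246 genes took 0.132% to 0.164% of the counts of a library, and the 10 most abundant of them held 35.5% of that. Counts below are normalized: each was divided by its library's effective size (total count times TMM factor) and put back on the scale of a typical library. The mean normalized count over the 9 libraries ranged from 29.4 to 4014, with a median of 96.5. In non-stimulated cells the most abundant was OIP5-AS1, also known as cyrano, at 4197 ± 92.9 (SD, n = 3), followed by FGD5-AS1 at 4184 ± 48.6, AFAP1-AS1 at 3498 ± 340 and PAX8-AS1 at 2741 ± 156. OIP5-AS1 and FGD5-AS1 overlapped in their libraries. AFAP1-AS1 lay below both and above PAX8-AS1 in the non-stimulated libraries.

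Per length, an antisense-named gene was usually below its partner. Over the 223 pairs with a tested partner and a length for both, the ratio of normalized counts per 1000 exonic bases in non-stimulated cells had a median of 0.217 and quartiles of 0.0607 and 0.777, and 49 antisense-named genes stood above their partner. The highest ratios belonged to NUTM2A-AS1 (76.2) and AFAP1-AS1 (50.3). Their partners were hardly expressed, with 2.13 normalized counts per 1000 bases for NUTM2A and 10.2 for AFAP1. The lowest ratio was that of SLC25A5-AS1, at 0.0011, beside a partner that encodes an abundant mitochondrial ADP/ATP carrier.

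**Figure D1:**
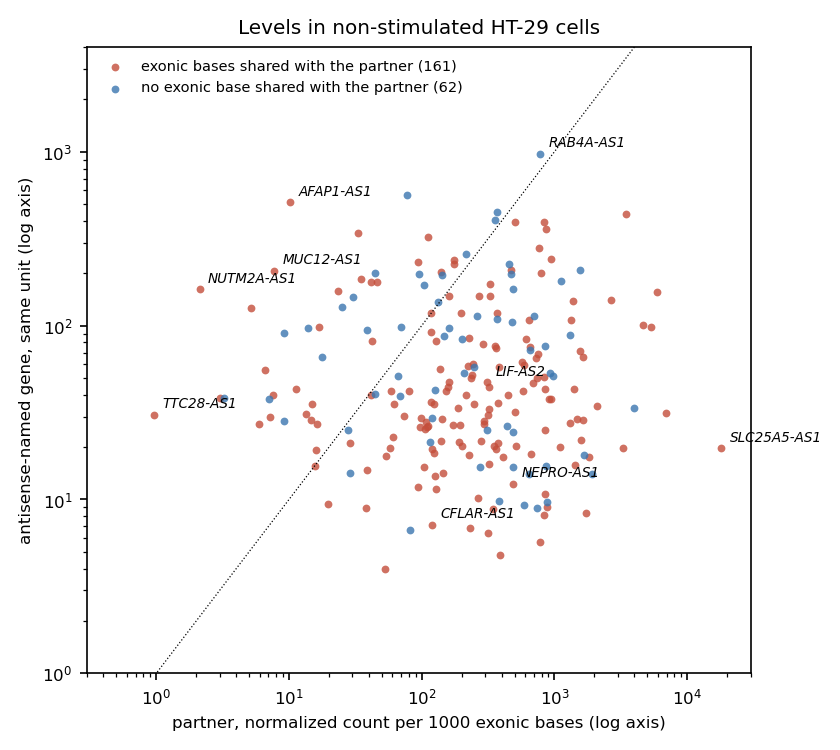
Normalized count per 1000 exonic bases in non-stimulated HT-29 cells (mean of 3 libraries, log axes) of each antisense-named gene against its partner. Of the 223 pairs, 161 share exonic bases with each other (red) and 62 do not (blue); 49 lie above the dotted line of equal level.

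The condition on the mean count runs over all 9 libraries, so a gene that is high in 1 group alone can pass through that group, which favours rises after ADP-heptose over falls. It is set on raw counts, so the deeper ADP-heptose libraries weigh more in it. Just outside were BTG3-AS1, LMNTD2-AS1 and THAP7-AS1, with mean raw counts of 29.3, 29.4 and 29.7. Just inside were ATP6V0E2-AS1, ZNF687-AS1 and UXT-AS1, with 30, 30.7 and 31. BTG3-AS1 had raw counts of 18, 25 and 14 without stimulation, 16, 22 and 15 with flagellin and 53, 59 and 42 with ADP-heptose. Of the 246, 19 had a mean raw count under 30 in non-stimulated cells.

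ADP-heptose raised 15 of the 246 antisense-named genes and lowered 14 (edgeR's quasi-likelihood test, Benjamini-Hochberg adjusted p under 0.05 over the 17412 genes tested). That is 6.1% higher, against 7.48% of all genes tested, and 5.69% lower, against 4.42% of all genes. Their median log2 fold change was −0.04, beside 0.01 over all genes. With a change of at least 2-fold as a further condition, 11 were higher (4.47%, against 2.89% of all genes) and 2 lower (0.813%, against 0.471%). When a mean raw count of at least 30 was asked of every group, 11 were higher and 14 lower, counts that have no share of all genes beside them. The shares above lie near those of all genes and are no result about antisense-named genes as a class. In bulk RNA, fewer cells that express a gene and less RNA per cell cannot be told apart. All 29 calls remained without the third ADP-heptose library, when 19 were higher (7.72%, against 11.2% of all genes) and 23 lower (9.35%, against 7.07%). With library totals in place of TMM scaling, which moved the median of all genes to −0.13, 11 were higher (against 5.27% of all genes) and 30 lower (against 10.8%). The genes whose groups did not overlap numbered 28 on the higher side, against 15.4% of all genes, and 44 on the lower side, against 14.7%; as shares of the 246 these are 11.4% and 17.9%.

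BASP1-AS1 had the highest fold among the genes called higher, but it met the minimum mean count only through the ADP-heptose libraries, so a difference was built into its choice and its fold and p are a description. Its normalized counts were 9.28, 11.2 and 7.57 without stimulation, 15.5, 9.15 and 25.5 with flagellin and 85.8, 85.0 and 74.7 with ADP-heptose. Every ADP-heptose library was above every other library, while the flagellin and non-stimulated libraries overlapped. The fitted rise was 8.67-fold (log2 fold change 3.12, SE 0.34, adjusted p 5.59e-05). The gene lies at chr5:17130028-17217047 on the minus strand and shares 2.55% of its exonic bases with other genes. Its partner BASP1, a membrane-bound signalling protein best known from neurons, had counts in 1 of the 9 libraries, so the rise was measured with next to no partner RNA present.

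LIF-AS2 rose next to LIF, which encodes a cytokine of the interleukin-6 family. LIF-AS2 stood at 27.8, 44.9 and 40.0 normalized counts without stimulation, at 51.7, 44.6 and 43.4 with flagellin and at 192, 189 and 199 with ADP-heptose. The 3 ADP-heptose libraries lay close together and far above the rest. The rise was 5.16-fold (log2 fold change 2.37, SE 0.19, adjusted p 3.46e-06), and LIF itself rose 4.53-fold, from a range of 1082 to 1321 to a range of 4769 to 6219. LIF-AS2 is a gene of 794 exonic bases at chr22:30246205-30246998 on the plus strand, and 22.0% of these bases are shared, 175 of them with LIF.

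TRIM31-AS1 and CFLAR-AS1 also belonged to partners that rose, and both had a mean raw count under 30 without stimulation. Both met the minimum mean count only through the ADP-heptose libraries, so their folds and p are a description. TRIM31 encodes a ubiquitin ligase of the gut epithelium, and CFLAR encodes c-FLIP, which blocks caspase-8. TRIM31-AS1 went from 26.8, 24.7 and 21.6 normalized counts without stimulation to 81.7, 85.0 and 64.1 with ADP-heptose, 3.15-fold (log2 fold change 1.65, SE 0.25, adjusted p 6.83e-04). CFLAR-AS1 went from 33.0, 23.6 and 36.8 to 76.7, 79.3 and 104, 2.77-fold (log2 fold change 1.47, SE 0.25, adjusted p 0.00191). In both genes the groups stood clear of each other, which was a condition for describing a called gene by its rise or fall. TRIM31 rose 5.31-fold and CFLAR 2.2-fold. The overlaps were 31.7% of the exonic bases of TRIM31-AS1 (chr6:30105240-30114724, plus strand) and 17.9% of those of CFLAR-AS1 (chr2:201140278-201157823, minus strand).

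TMEM92-AS1 and XXYLT1-AS2 share no exonic base with any annotated gene. TMEM92-AS1, which ends tail to tail with the transmembrane protein gene TMEM92 (chr17:50281577-50287855, minus strand), rose 3.75-fold (log2 fold change 1.91, SE 0.21, adjusted p 5.02e-05). Its normalized counts were 38.2, 55.0 and 36.8 without stimulation, 50.7, 67.5 and 51.0 with flagellin and 178, 145 and 165 with ADP-heptose. XXYLT1-AS2 lies inside XXYLT1, a gene for a xylosyltransferase that modifies Notch (chr3:195147871-195152790, plus strand). It had 217, 208 and 186 normalized counts without stimulation, 293, 291 and 268 with flagellin and 462, 484 and 563 with ADP-heptose. All 3 groups were separate, in that order. After ADP-heptose it rose 2.47-fold (log2 fold change 1.30, SE 0.12, adjusted p 8.48e-06), while its partner ranged from 1162 to 1190 and from 1238 to 1266 in these groups (log2 fold change 0.10, adjusted p 0.443).

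NUP153-AS1 and BAZ1A-AS1 start near their partners' start sites, on the other strand. NUP153 encodes a protein of the nuclear pore basket and BAZ1A a subunit of chromatin remodelling complexes. NUP153-AS1 had 51.6, 49.4 and 35.7 normalized counts without stimulation and 105, 105 and 165 with ADP-heptose, 2.73-fold higher (log2 fold change 1.45, SE 0.24, adjusted p 0.00175). BAZ1A-AS1 had 37.1, 60.6 and 31.4 and then 112, 114 and 110, 2.62-fold higher (log2 fold change 1.39, SE 0.26, adjusted p 0.00402). Neither overlapped between the groups, which the choice of described genes required. Both have large overlaps, 51.3% and 44.9% of their exonic bases, with partners that are far more abundant: NUP153 had a log2 fold change of 0.42 that missed the threshold (adjusted p 0.0708), and BAZ1A rose by 0.73 (adjusted p 5.36e-04). In NUP153 the third ADP-heptose library, at 3451 normalized counts, was far below the others, at 5235 and 5372, and without it NUP153 was called as well (log2 fold change 0.60, adjusted p 1.70e-10).

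KRTAP5-AS1, antisense to the keratin-associated protein cluster on chromosome 11 (chr11:1571353-1599184, plus strand), rose 3.37-fold (log2 fold change 1.75, SE 0.25, adjusted p 4.22e-04). Its normalized counts were 37.1, 32.5 and 61.6 without stimulation, 72.4, 65.2 and 71.5 with flagellin and 162, 167 and 114 with ADP-heptose, and the 3 groups did not overlap. Separation of the ADP-heptose from the non-stimulated libraries was required by the choice of described genes. It shares 35.7% of its exonic bases, most with KRTAP5-2, which had no count in the non-stimulated libraries.

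The other rises were smaller. MUC12-AS1, within the gene of a membrane mucin, rose 2.01-fold, from 91.8, 66.2 and 95.1 to 143, 170 and 197 normalized counts (adjusted p 0.00321). PAX8-AS1 rose 1.33-fold, from 2565, 2793 and 2865 to 3672, 3671 and 3580 (adjusted p 0.00181). NEPRO-AS1 (2.16-fold, adjusted p 0.0329) and RARA-AS1 (1.92-fold, adjusted p 0.0348), next to genes for a nucleolar protein and for the retinoic acid receptor alpha, lost the call in 5 and 6 of 16 alternative settings. NDUFV2-AS1 (1.73-fold) and ZBTB11-AS1 (1.46-fold) were also called and are named after their values were seen. Of the 15 genes that rose, BASP1-AS1, NEPRO-AS1, TRIM31-AS1 and CFLAR-AS1 had a mean raw count under 30 without stimulation. In all of these but TRIM31-AS1 the flagellin mean was under 30 too, so that they met the minimum through the ADP-heptose libraries, and their folds and p are likewise a description.

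**Figure D2:**
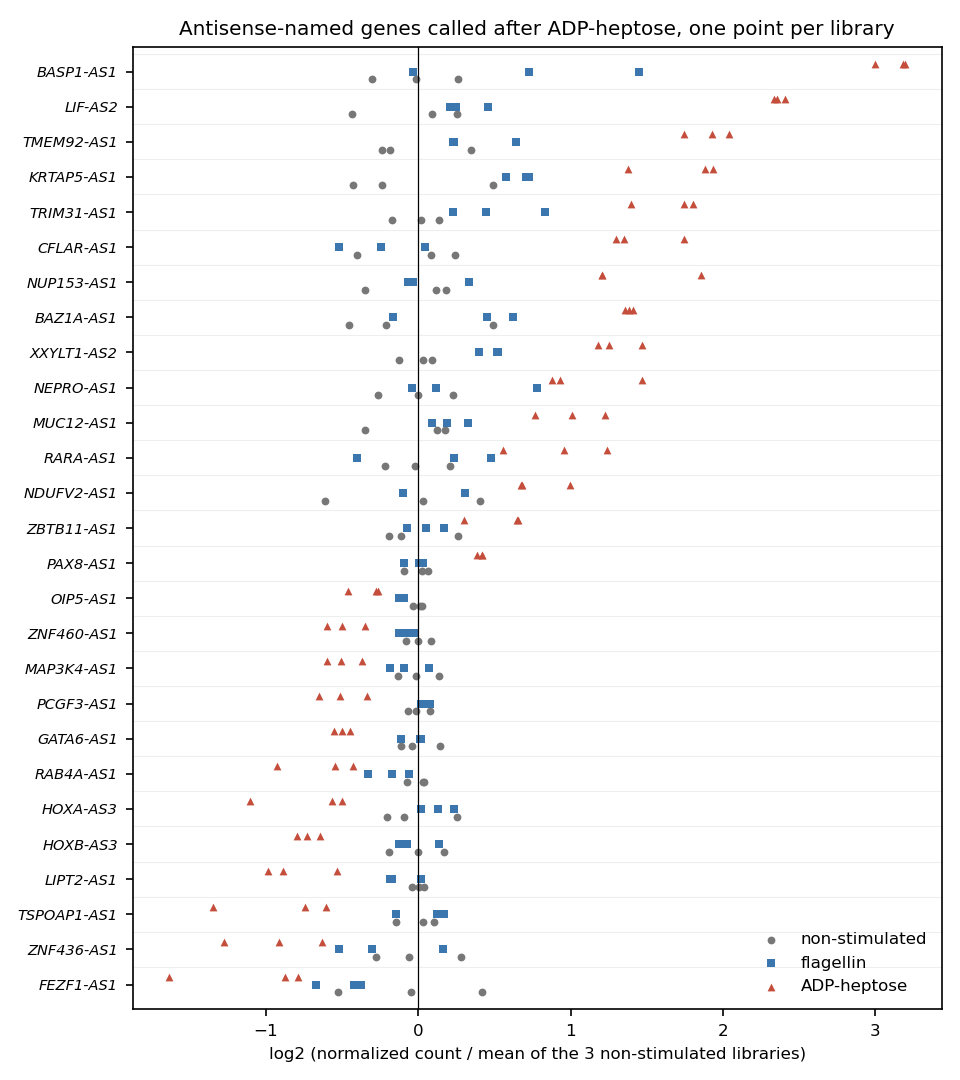
27 of the 29 antisense-named genes called after ADP-heptose, ordered by log2 fold change. Each point is 1 library, placed by the log2 ratio of its normalized count to the mean of the 3 non-stimulated libraries; the ADP-heptose libraries (triangles) lie to one side of the non-stimulated ones (circles) in these 27 rows, which were chosen by the adjusted p of this same comparison, and the flagellin libraries (squares) lie mostly among the latter.

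The 14 falls were smaller. FEZF1-AS1, beside the gene of a zinc finger factor of the developing forebrain, fell 2.07-fold, from 62.9, 87.5 and 121 to 29.2, 49.3 and 52.5 normalized counts (log2 fold change −1.05, SE 0.28, adjusted p 0.0316). The ADP-heptose libraries lay below the non-stimulated ones, while the flagellin libraries overlapped with the latter, and the call was lost in 4 of 16 alternative settings. FEZF1 itself was nearly silent, with a mean of 15.5 normalized counts without stimulation.

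HOXB-AS3 and HOXA-AS3 come from the HOX clusters, whose transcription factors set position along the body axis. HOXB-AS3 stood at 1269, 1109 and 1427 normalized counts without stimulation and at 810, 765 and 731 with ADP-heptose, 1.65-fold lower (log2 fold change −0.72, SE 0.11, adjusted p 5.8e-04). HOXA-AS3 stood at 256, 186 and 201 and then at 145, 151 and 99.6, 1.62-fold lower (log2 fold change −0.70, SE 0.18, adjusted p 0.0246), a call lost in 3 of 16 alternative settings. In neither did the groups overlap, which the choice of described genes required. The genes that share most of their overlapping exonic bases, HOXB6 and HOXA7, fell too, by 0.76 (adjusted p 4.05e-05) and 0.84 (adjusted p 0.0427) on the log2 scale. The other HOX antisense genes, looked at after these values were seen, had log2 fold changes of −0.40 (HOXB-AS4), −0.27 (HOXC-AS1) and −0.19 (HOXC-AS2), and none passed the threshold (adjusted p 0.261, 0.587 and 0.639).

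TSPOAP1-AS1 fell 1.81-fold, from 205, 182 and 216 normalized counts to 132, 120 and 79.2 (adjusted p 0.00926). It shares 61.3% of its exonic bases, most with RNF43, a ubiquitin ligase that removes Wnt receptors, and RNF43 fell by 0.61 on the log2 scale (adjusted p 3.95e-04). LIPT2-AS1 fell 1.73-fold, from 294, 301 and 285 to 158, 148 and 203 (adjusted p 0.00202). Its partner LIPT2, an enzyme of mitochondrial lipoic acid synthesis, had a log2 fold change of −0.53 (adjusted p 0.0725).

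RAB4A-AS1 and ZNF460-AS1 share no exonic base with another annotated gene. RAB4A-AS1, whose start lies 34 bases from that of RAB4A, a GTPase of recycling endosomes, fell 1.53-fold, from 1150, 1072 and 1159 normalized counts to 772, 836 and 593 (adjusted p 0.00485). RAB4A stayed at a log2 fold change of −0.02 (adjusted p 0.887). ZNF460-AS1 fell 1.4-fold (adjusted p 0.0445) and lost that call in 12 of 16 alternative settings.

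Other genes that fell were ZNF436-AS1 (1.89-fold, adjusted p 0.0306), GATA6-AS1 (1.41-fold, adjusted p 0.0164), PCGF3-AS1 (1.41-fold, adjusted p 0.0109), MAP3K4-AS1 (1.4-fold, adjusted p 0.0155) and OIP5-AS1 (1.26-fold, adjusted p 0.00775). Of 16 alternative settings, ZNF436-AS1 lost the call in 5, GATA6-AS1 and MAP3K4-AS1 in 2 each, PCGF3-AS1 in 1 and OIP5-AS1 in none. OIP5-AS1, the most abundant of them, went from 4092, 4268 and 4230 normalized counts to 3456, 3496 and 3055. GATA6-AS1 had 225, 237 and 269 normalized counts without stimulation and 172, 166 and 179 with ADP-heptose. It shares 240 exonic bases with GATA6, a transcription factor of endodermal tissues, which had a log2 fold change of 0.22 that missed the threshold (adjusted p 0.0798).

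Partners were sorted by their symbols into immune and NF-κB signalling genes, transcription factors and all others; the counts below stand beside 7.48% of all genes called higher and 4.42% called lower, and no class was tested against the others. Of the 33 antisense-named genes beside a transcription factor, 2 were higher after ADP-heptose (PAX8-AS1 and ZBTB11-AS1) and 6 lower (HOXB-AS3, HOXA-AS3, GATA6-AS1, ZNF460-AS1 and ZNF436-AS1 among them), and their log2 fold changes had a median of −0.21. Of their 27 tested partners, 1 was higher and 2 lower, with a median of −0.14. Of the 9 beside an immune gene, 2 were higher (LIF-AS2 and TRIM31-AS1) and none lower by edgeR, with 1 lower at an unadjusted p under 0.05. Of the 9 immune partners 4 were higher. The remaining 204 held 11 higher and 8 lower genes, with a median of −0.02.

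Overlap with genes that moved was counted for the called genes. Among the 15 that rose, 2 shared no exonic base, 6 shared most with a gene that also rose, and 7 with a gene that was not called or not tested. Among the 14 that fell, these counts were 3, 4 and 7. These counts include the third ADP-heptose library. Without it NUP153 and ZBTB11, which share most with their antisense-named genes, were called higher too (log2 fold changes 0.60 and 0.30, adjusted p 1.70e-10 and 6.27e-04). None of the 29 shared most of its overlapping bases with a gene called in the opposite direction, except GATA6-AS1 once the third ADP-heptose library is left out. Among the 51 antisense-named genes without any shared exonic base, 2 were higher and 3 lower, near the shares of all genes (7.48% and 4.42%). The part of shared reads in the other calls was not tested.

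Both genes of a pair could be tested in 224 pairs. After ADP-heptose both rose in 6 (LIF, TRIM31, CFLAR, TMEM92, MUC12 and BAZ1A with their antisense genes) and both fell in 2 (MAP3K4 and MAP3K4-AS1 among them). In 7 pairs the antisense-named gene rose and in 9 it fell while the partner was not called. No pair had called changes in opposite directions, but without the third ADP-heptose library 2 did: GATA6-AS1 fell and GATA6 rose (log2 fold changes −0.52 and 0.27, adjusted p 0.00896 and 0.00171), as did ZNF460-AS1 and ZNF460. In that fit both genes rose in 11 pairs and fell in 3, the antisense-named gene alone rose in 6 and fell in 14, and the partner alone rose in 32 and fell in 14. In 19 pairs the partner rose and in 7 it fell while the antisense-named gene was not called, and in 174 neither was called. Of the 223 partners tested, 25 were higher and 8 lower, and without the third ADP-heptose library 45 and 16. With all 9 libraries the shares of the 223 were 11.2% and 3.59%, against 7.48% and 4.42% of all genes tested. Without that library the 45 and 16 partners stand beside 11.2% and 7.07% of all genes. The 11.2% of partners and the 11.2% of all genes come from different fits. As a description of these pairs, which share libraries and, in most cases, bases, Pearson's r between the log2 fold changes of partner and antisense-named gene was 0.50 (Spearman's rho 0.38). It was 0.53 in the 161 pairs that share exonic bases and 0.43 in the 62 that do not.

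**Figure D3:**
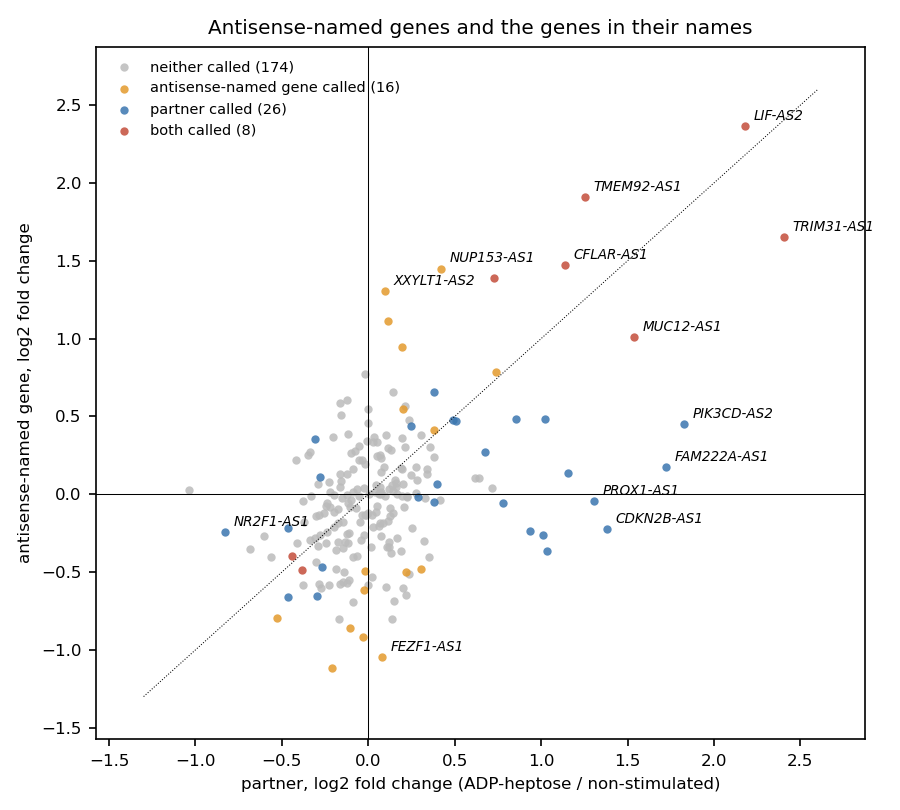
Log2 fold change after ADP-heptose of each antisense-named gene against that of its partner, for the 224 pairs with both tested; the dotted line marks equal change. Pairs called in both (red) sit in the upper right and lower left, and no pair called in both lies in the upper left or lower right; blue points near the horizontal line are partners that rose without their antisense-named gene.

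In 8 pairs the partner rose at least 2-fold and the antisense-named gene was not called. The partners were PIK3CD (3.54-fold), FAM222A (3.3-fold), CDKN2B (2.61-fold), PROX1 (2.47-fold), SDCBP2 (2.22-fold), ARRDC3 (2.05-fold), FOSL2 (2.03-fold) and HLA-F (2.02-fold). CDKN2B encodes the cell cycle inhibitor p15, and CDKN2B-AS1 is the RNA known as ANRIL. CDKN2B went from 1085, 1134 and 1124 normalized counts to 3145, 3104 and 2470, while CDKN2B-AS1 had 146, 127 and 96.2 and then 92.5, 127 and 96.1, with overlapping groups (log2 fold change −0.22, SE 0.19, adjusted p 0.501). PROX1, a homeobox factor, went from 366, 304 and 344 to 909, 983 and 614, while PROX1-AS1 had 124, 57.2 and 96.2 and then 108, 98.6 and 62.3 (log2 fold change −0.04, SE 0.29, adjusted p 0.941).

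PIK3CD encodes the delta catalytic subunit of phosphoinositide 3-kinase, and it rose from 56.7, 68.4 and 49.7 to 212, 202 and 206 normalized counts. PIK3CD-AS2 had 83.5, 99.9 and 72.4 and then 111, 101 and 138. Its ADP-heptose libraries were all above the non-stimulated ones, but the difference missed the threshold (log2 fold change 0.45, SE 0.19, adjusted p 0.155). NR2F1, an orphan nuclear receptor, fell 1.78-fold (adjusted p 6.99e-05), and NR2F1-AS1 had a log2 fold change of −0.24 (adjusted p 0.352) with overlapping groups.

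**Figure D4:**
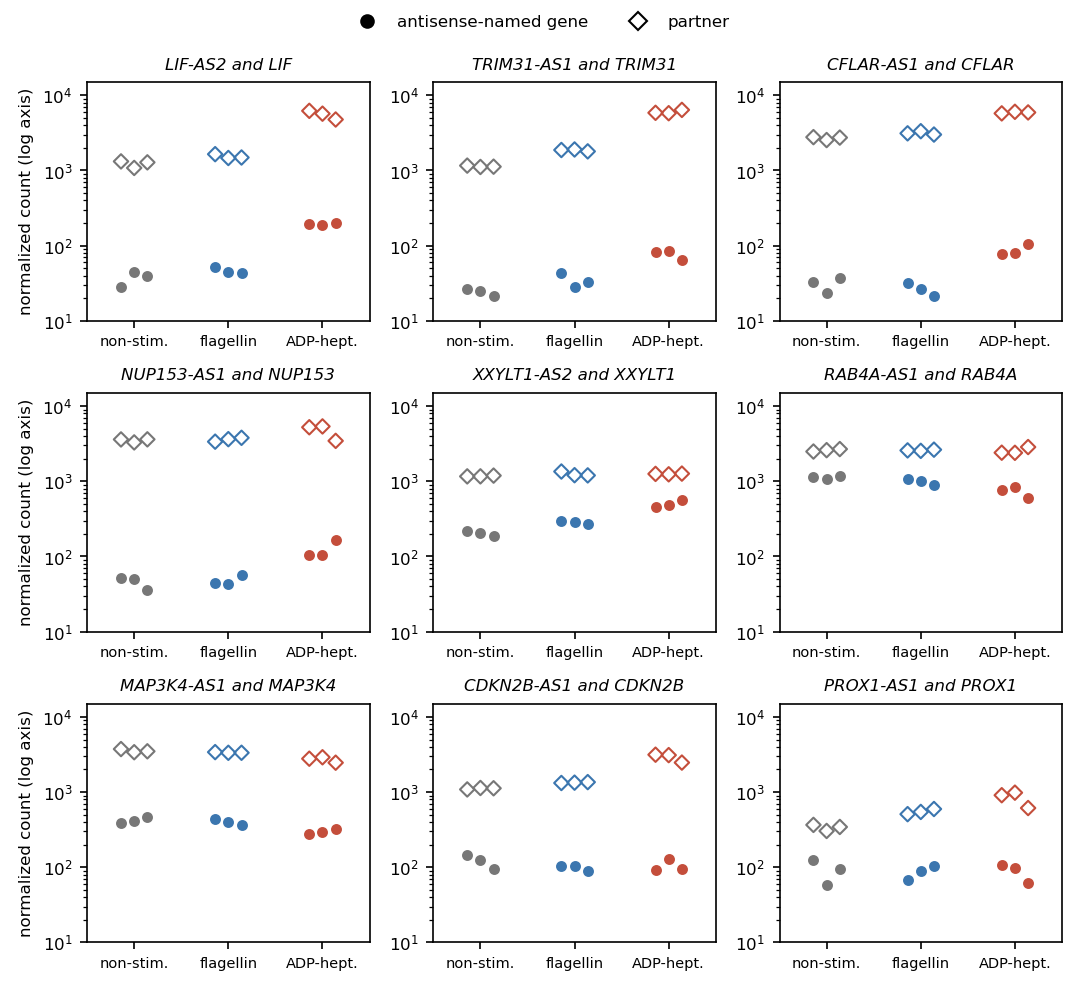
Normalized counts (log axis) of 9 antisense-named genes (filled circles) and their partners (open diamonds) in each library of the 3 groups. In the upper row both rise with ADP-heptose; in the middle row the antisense-named gene moves while the partner is not called; in the lower row both MAP3K4 genes fall slightly, and CDKN2B and PROX1 rise without their antisense-named genes.

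For the promoters, the RefSeq table of GRCh38.p14 holds the 300 bases from 250 before to 50 after the start of 193 of the 246 genes, in 249 entries. The motifs were searched on both strands: the κB consensus, to which NF-κB dimers bind, AP-1 (TGANTCA) and the cyclic AMP element CRE (TGACGTCA). Matches of 1 motif may overlap each other and were counted per promoter. The κB consensus was found in 11.3% of all 35116 promoters of the table and in 11.2% of those of the antisense-named genes. Of the 15 genes that rose, 11 had an entry, with 13 promoters. The κB consensus was in 5 of these, each from a different gene (RARA-AS1, NUP153-AS1, NEPRO-AS1, ZBTB11-AS1 and PAX8-AS1). Among the genes that fell, 11 had an entry, with 14 promoters, and it was in 3 (ZNF436-AS1, TSPOAP1-AS1 and GATA6-AS1). AP-1 was in 7.71% of all promoters and in 1 of these 13, that of MUC12-AS1, and in none of these 14. CRE was in 1.85% of all, in none of these 13 and in 1 of these 14. The promoters of 4 genes that rose with a κB match and of 1 that fell are shown so that the matches can be read, with TRIM31-AS1 as a strong riser that has none. κB matches are in capitals, 5′ to 3′ on the gene's strand. They are RARA-AS1 (chr17:40343087-40343386, minus), NUP153-AS1 (chr6:17705880-17706179, plus), NEPRO-AS1 (chr3:113019268-113019567, plus), ZBTB11-AS1 (chr3:101676180-101676479, plus, with 2 overlapping matches), GATA6-AS1 (chr18:22168919-22169218, minus) and TRIM31-AS1 (chr6:30104990-30105289, plus).
RARA-AS1: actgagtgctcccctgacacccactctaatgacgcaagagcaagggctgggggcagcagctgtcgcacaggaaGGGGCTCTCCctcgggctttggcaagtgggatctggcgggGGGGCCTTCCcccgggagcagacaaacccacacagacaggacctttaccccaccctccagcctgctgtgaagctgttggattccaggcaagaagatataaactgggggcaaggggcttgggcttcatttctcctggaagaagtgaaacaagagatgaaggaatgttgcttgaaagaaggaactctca
NUP153-AS1: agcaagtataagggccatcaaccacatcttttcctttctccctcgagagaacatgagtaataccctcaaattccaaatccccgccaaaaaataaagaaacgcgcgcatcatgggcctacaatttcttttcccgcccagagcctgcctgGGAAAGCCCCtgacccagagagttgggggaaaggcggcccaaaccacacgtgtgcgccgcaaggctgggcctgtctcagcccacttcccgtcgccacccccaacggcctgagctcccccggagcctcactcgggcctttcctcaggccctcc
NEPRO-AS1: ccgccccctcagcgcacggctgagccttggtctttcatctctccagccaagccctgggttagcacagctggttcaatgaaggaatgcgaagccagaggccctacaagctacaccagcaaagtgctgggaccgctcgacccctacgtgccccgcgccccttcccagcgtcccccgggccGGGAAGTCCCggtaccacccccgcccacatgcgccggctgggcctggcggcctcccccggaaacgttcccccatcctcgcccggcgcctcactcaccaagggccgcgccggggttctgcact
ZBTB11-AS1: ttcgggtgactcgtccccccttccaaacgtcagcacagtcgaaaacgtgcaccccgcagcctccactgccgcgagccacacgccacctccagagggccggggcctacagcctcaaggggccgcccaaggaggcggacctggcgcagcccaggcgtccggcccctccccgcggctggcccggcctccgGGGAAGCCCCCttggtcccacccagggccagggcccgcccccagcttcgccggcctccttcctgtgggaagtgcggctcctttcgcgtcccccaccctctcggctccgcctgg
GATA6-AS1: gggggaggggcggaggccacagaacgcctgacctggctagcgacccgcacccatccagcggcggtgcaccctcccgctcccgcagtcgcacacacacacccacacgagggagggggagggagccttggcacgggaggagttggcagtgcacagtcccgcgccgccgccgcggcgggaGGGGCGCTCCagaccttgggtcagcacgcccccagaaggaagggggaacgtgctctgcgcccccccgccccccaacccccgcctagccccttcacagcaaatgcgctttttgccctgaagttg
TRIM31-AS1: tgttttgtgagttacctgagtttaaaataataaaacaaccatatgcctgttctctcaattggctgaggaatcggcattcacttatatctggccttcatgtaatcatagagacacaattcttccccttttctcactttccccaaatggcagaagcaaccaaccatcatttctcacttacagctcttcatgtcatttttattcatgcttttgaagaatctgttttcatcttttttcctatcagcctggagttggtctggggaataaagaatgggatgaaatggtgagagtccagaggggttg

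The match farthest upstream lay 177 bases before the start in RARA-AS1, 102 in NUP153-AS1, 72 in NEPRO-AS1, 63 in ZBTB11-AS1 and 73 in GATA6-AS1. A match says only that the letters are there, and the same holds for its absence in TRIM31-AS1. BASP1-AS1, LIF-AS2, TMEM92-AS1 and BAZ1A-AS1, which also rose, have no entry among these promoters and were not searched for the motifs.

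Flagellin called none of the 246 antisense-named genes in either direction by edgeR's quasi-likelihood test, against 0.368% of all genes higher and 0.0115% lower. At an unadjusted p under 0.05 there were 10 (7 higher and 3 lower), 4.07% of the 246 against 3.78% of all genes. The groups did not overlap in 12 on the higher side (4.88%, against 7.66% of all genes) and in 17 on the lower side (6.91%, against 5.19%). The DESeq2 Wald test also called none, with 9 at an unadjusted p under 0.05. The median log2 fold change was 0.00, and it ranged from −0.87 to 0.82. The smallest adjusted p was that of XXYLT1-AS2, at 0.286, with a log2 fold change of 0.48 (SE 0.12) and all 3 flagellin libraries above the non-stimulated ones. XXYLT1-AS2 was called in the fit without the third ADP-heptose library, where 0.918% of all genes were higher. That fit holds the same flagellin and non-stimulated libraries and another estimate of the spread. KRTAP5-AS1 and TRIM31-AS1 also had their flagellin libraries above the non-stimulated ones, with log2 fold changes of 0.67 and 0.53 and adjusted p of 1.0 each. LIF-AS2 and BASP1-AS1 had overlapping groups, with log2 fold changes of 0.32 and 0.82. Among the partners TRIM31 was called, from 1161, 1114 and 1124 normalized counts to 1874, 1904 and 1797 (log2 fold change 0.71, SE 0.07, adjusted p 2.39e-04). The stimulus was otherwise measurable: all 10 genes of a list of inflammatory response genes were called higher after flagellin as well as after ADP-heptose.

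Against flagellin, ADP-heptose had 11 of the 246 genes higher (4.47%, against 5.4% of all genes) and 10 lower (4.07%, against 2.76%). Without the third ADP-heptose library these were 20 (8.13%, against 10% of all genes) and 15 (6.1%, against 5.14%). With library totals they were 11 (against 4.07% of all genes) and 17 (against 6.11%). The higher ones were led by BASP1-AS1 (log2 difference 2.30, adjusted p 5.11e-04), LIF-AS2 (2.05, adjusted p 1.51e-05), CFLAR-AS1 (1.68, adjusted p 0.00105) and TMEM92-AS1 (1.52, adjusted p 3.66e-04). The lower ones included TSPOAP1-AS1 (−0.91, adjusted p 0.00815) and HOXA-AS3 (−0.83, adjusted p 0.0118). This comparison is the direct test of a difference between the stimuli at the 1 dose and time measured. LIF-AS2, TMEM92-AS1, TSPOAP1-AS1 and HOXA-AS3 passed it. BASP1-AS1 and CFLAR-AS1 met the minimum mean count only through the ADP-heptose libraries, so a difference from flagellin was built into their choice. Their differences and p are a description. For NEPRO-AS1, RARA-AS1 and FEZF1-AS1 the difference missed the threshold (adjusted p 0.153, 0.0886 and 0.296). The comparison shares its ADP-heptose libraries with the one above and adds no independent evidence to it.

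Other classes of long non-coding names were counted at the same minimum level. After ADP-heptose, 4 of 96 genes named as divergent transcripts (-DT) were higher and 4 lower, and the median of their log2 fold changes was −0.11. Of 115 genes named LINC, 9 were higher and 13 lower, the median being −0.07. In shares, 4.17% of the -DT genes were called in each direction and 7.83% and 11.3% of the LINC genes, against 7.48% and 4.42% of all genes. Neither class was compared with the antisense-named genes by a test. After flagellin none of either class was called by edgeR, with 5 and 4 at an unadjusted p under 0.05.

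Several well-studied antisense-named genes missed the threshold. After ADP-heptose FGD5-AS1 (log2 fold change −0.15, SE 0.08, adjusted p 0.262), AFAP1-AS1 (−0.21, SE 0.12, adjusted p 0.305), FOXD2-AS1 (−0.13, SE 0.10, adjusted p 0.417), SBF2-AS1 (−0.18, SE 0.10, adjusted p 0.317), VPS9D1-AS1 (0.01, SE 0.10, adjusted p 0.973) and MAPKAPK5-AS1 (−0.12, SE 0.12, adjusted p 0.543) were not called. The low SE of these abundant genes leaves little room for a 2-fold change in them. For genes with means near 30 counts the SE was larger, 0.37 for UXT-AS1 and 0.43 for ATP6V0E2-AS1, and modest changes of such genes were not detectable at this depth.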

How the data were processed

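Gene expression of HT-29 cells was measured by RNA sequencing in 9 libraries, 3 a group. The authors enriched poly(A) RNA and sequenced it as paired 150-base reads. The submitters' processing notes name HISAT2 and featureCounts, and the deposited table holds raw counts per gene and library, with nothing pooled. Versions, genome build, annotation and strand setting are not given in the sources used here. Coordinates, gene types and overlaps come from GENCODE 29 on GRCh38, matched by gene identifier (58274 of 62710 matched); promoters come from RefSeq. Identifiers listed more than once (232, with equal counts) were kept once.

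All 9 libraries were fitted together with edgeR 4.0.16 in R 4.3.3 (TMM, filterByExpr, robust quasi-likelihood F test), with Benjamini-Hochberg adjustment over 17412 genes; a gene is called at an adjusted p under 0.05. All 246 genes passed the filter. The fit was tested on simulated data. Alternatives were DESeq2 1.42.0 (its size factors or its test), library totals, no filter on low counts, the replicate number as a block, fits of 6 libraries, each library left out, a 2-fold threshold, and other memberships. Genes in the text are the called genes with separate groups (up to 12 rises and 12 falls a comparison), the 10 most abundant, those at the threshold, those with extreme ratios or with partners changed 2-fold, and a list of well-studied genes; results of some genes are not reported here, though the counts include them. The members and lists were chosen with earlier results of these data known. The p-values measure the spread between these 3 samples a group; an exact permutation test of 3 against 3 cannot go below 0.1.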

Additional observations from a re-analysis of the deposited data

How the results depend on the processing

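No call of a named antisense gene changed direction under the 16 alternative fits; 17 of the 27 called against non-stimulated cells, and 11 of the 21 called against flagellin, kept the call in all of them. For ADP-heptose against non-stimulated cells (15 higher, 14 lower), a mean count of at least 100 gave 6 higher, genes without shared exonic bases gave 2 and 3, the 2-fold threshold gave 2 lower, and leaving out 1 library gave 11 to 19 higher and 8 to 23 lower, both lowest without non-stimulated replicate 3 and both highest without ADP-heptose replicate 3. Library totals in place of TMM shifted the median of all genes to −0.13 and gave 11 higher and 30 lower, against 5.27% and 10.8% of all genes. For ADP-heptose against flagellin (11 and 10), library totals gave 17 lower, a mean count of at least 100 gave 4 higher, genes without shared exonic bases 2 and 2, the 2-fold threshold 1 lower, and leaving out 1 library 8 to 20 higher and 4 to 15 lower (4 without flagellin replicate 2, 20 and 15 without ADP-heptose replicate 3). For flagellin against non-stimulated cells the count of higher genes was 0 to 1. With the 6 set-aside identifiers included, an alternative chosen after seeing the data, 17 were higher and 14 lower against non-stimulated cells.

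For the partners, against non-stimulated cells (25 and 8) leaving out 1 library gave 21 to 45 higher and 4 to 16 lower, the 2-fold threshold 13 and 0, library totals 28 lower, no filter on low counts 15 lower and 6 libraries in the fit 4 lower. Against flagellin (21 and 6) these were 18 to 47 and 3 to 12, 7 and 0, 19, 10 and 3. For flagellin against non-stimulated cells (1 higher), no filter gave 3, DESeq2 gave 2, 6 libraries in the fit 5, the 2-fold threshold 0, and leaving out 1 library 1 to 6. Shares of all genes moved too. Against non-stimulated cells they went from 7.48% higher and 4.42% lower to 11.2% and 7.07% without ADP-heptose replicate 3. Library totals gave 10.8% lower and the 2-fold threshold 2.89% and 0.471%. Against flagellin they were 10% and 5.14% without that replicate, and 6.11% lower with library totals. After flagellin 0.918% were higher without it. The other settings have no such share here, so their counts are no result about the partners or the antisense-named genes. The cause of these shifts was not tested.

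The labels do not say whether libraries of the same number belong together, and the paper's legends state 3 independent experiments. Correlations of same-numbered deviations ran from −0.38 to 0.22, not above 0.1 in every pair, and those of other pairs from −0.38 to 0.43. These values cannot decide on a pairing, because the deviations are taken from means of 3 libraries and the third ADP-heptose library stands apart. With the replicate block, 13 antisense-named genes were higher and 12 lower against non-stimulated cells, 11 and 7 against flagellin, none after flagellin, and 3 partners were lower against flagellin. The share of all genes called with the block is not given here, so these counts are no result about either list.

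Depth limits the rarer genes: at the level of the threshold the SE of a log2 fold change was 0.37 to 0.43.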
